A study of Mus musculus with 24 samples.

Results

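The genes of Reelin signalling examined here were Reln, Vldlr, Lrp8, Dab1, Cdk5, and Cdk5r1. Their members were the peaks of 6 ChIP-seq peak lists that overlapped the gene body of 1 of these genes, or the 20 kb on either side, in GENCODE vM21 on GRCm38 (mm10). There were 528 such peaks out of 314954 on the main chromosomes. They were divided into 94 peaks in a promoter of the gene itself, 38 in a promoter of a neighbouring gene, 368 elsewhere in a gene body, and 28 in a flank. A promoter was the stretch of 2000 bp that precedes an annotated transcript's start site (TSS). Of the gene-body peaks, 338 had their summit in an intron and 30 in an exon.

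The lists came from wild-type mouse cortex at the embryonic stages E15.5 and E18.5. At each stage, chromatin was immunoprecipitated with antibodies to ARID1B, a subunit of the BAF chromatin remodelling complex, to FOXP1, a forkhead transcription factor, and to TCF7L2, a high mobility group factor of the TCF/LEF family that acts in Wnt signalling. The labels call the third of these transcriptional regulators (TRs) TCF4, and the antibody named in the methods is against TCF7L2. The 24 libraries were 2 ChIP and 2 input replicates for each TR and stage. According to the methods, peaks were called after merging the replicates. GEO holds each list under replicate 1 alone, and the lists were taken here as merged, which the files themselves do not show. Each TR and stage is 1 list in either case, and no difference between lists could be set against the spread between replicates. Bulk cortex mixes many cell types, so weaker binding per cell and fewer cells with binding cannot be told apart. Peak signal is given throughout as fold enrichment, the ratio of ChIP reads at the summit to the background, with the ChIP reads scaled to the smaller library and 1 read added to both. The added read lowers the ratio most where the background is low, as in the FOXP1 list at E18.5. The range after a fold enrichment is the 95% exact Poisson interval of the ChIP reads at that summit, which covers counting error only.

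Reelin is a large secreted glycoprotein that Cajal-Retzius cells release at the surface of the developing cortex and that steers the positioning of migrating neurons. It binds the lipoprotein receptors VLDLR and ApoER2, which Lrp8 encodes, on migrating neurons and radial glia. Receptor clustering leads to phosphorylation of the intracellular adaptor DAB1, and DAB1 passes the signal to kinases and to the cytoskeleton. CDK5, a neuronal kinase that needs the activator p35 encoded by Cdk5r1, acts in parallel on many of the same steps, and loss of any of these proteins disturbs cortical layering.

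The 6 genes differ greatly in size and surroundings. Reln covers chr5:21884454-22344702 on the minus strand, a length of 460 kb, and Dab1 covers chr4:103619359-104744844 on the plus strand, a length of 1125 kb. Lrp8 (chr4:107802261-107876840, plus strand) and Vldlr (chr19:27216484-27254231, plus strand) have lengths of 74.6 and 37.7 kb. Cdk5 (chr5:24418241-24423530, minus strand) and Cdk5r1 (chr11:80477023-80481184, plus strand) are short, with lengths of 5.29 and 4.16 kb. Dab1 held 263 of the peaks, Lrp8 118, Reln 73, Cdk5r1 43, Cdk5 19, and Vldlr 12.

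The sequences below are the 200 bp around the summits that the results turn on, read 5′ to 3′ on the plus strand of GRCm38, and capitals mark matches to the 5 motifs searched. The first 2 are the gene-body loci with the highest ARID1B signal at Reln and Dab1. In order they lie at chr5:21947604-21947803 and chr4:103881789-103881988. Both are intronic, and each belongs to a locus with a peak in all 6 lists.
Reln intron: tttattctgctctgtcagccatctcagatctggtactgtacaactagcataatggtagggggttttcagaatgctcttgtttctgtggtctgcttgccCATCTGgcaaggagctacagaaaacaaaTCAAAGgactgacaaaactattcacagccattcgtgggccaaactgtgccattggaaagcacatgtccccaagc
Dab1 intron: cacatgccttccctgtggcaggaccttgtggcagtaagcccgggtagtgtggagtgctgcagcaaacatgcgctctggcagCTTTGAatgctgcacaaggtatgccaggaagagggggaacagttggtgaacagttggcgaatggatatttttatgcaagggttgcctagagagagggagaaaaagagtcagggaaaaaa

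The next 2 sequences are promoter summits at the extremes of FOXP1 signal among the 6 genes. They are the Cdk5 promoter at chr5:24423615-24423814 and the Reln promoter at chr5:22344623-22344822. Neither holds a match to any of the 5 motifs.
Cdk5 promoter: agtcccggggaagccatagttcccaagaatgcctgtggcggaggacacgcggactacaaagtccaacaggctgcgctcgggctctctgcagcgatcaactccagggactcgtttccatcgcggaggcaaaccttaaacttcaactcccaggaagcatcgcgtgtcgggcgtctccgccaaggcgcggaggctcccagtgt
Reln promoter: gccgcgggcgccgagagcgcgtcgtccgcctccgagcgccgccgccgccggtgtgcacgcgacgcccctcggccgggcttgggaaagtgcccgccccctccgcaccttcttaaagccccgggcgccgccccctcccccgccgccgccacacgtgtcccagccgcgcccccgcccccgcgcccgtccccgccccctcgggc

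The last is a Reln intron with repeated sequence, chosen after its values were seen. It lies at chr5:22262520-22262719 and holds 3 copies of the T-box core AGGTGTGA, which read TCACACCT on the plus strand.
Reln T-box intron: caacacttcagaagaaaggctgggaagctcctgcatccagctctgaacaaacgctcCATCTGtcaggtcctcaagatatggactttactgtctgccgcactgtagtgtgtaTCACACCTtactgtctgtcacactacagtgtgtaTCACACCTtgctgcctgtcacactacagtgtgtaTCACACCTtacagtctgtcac

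The lists held 24890 to 71442 peaks. The background at a summit was 6.13 to 8.63 reads in 5 lists and 2.81 reads in the FOXP1 list at E18.5, whose lowest listed fold enrichment was 3.21 against 2.33 to 2.66 in the others. Fewer weak loci could therefore enter the FOXP1 list at E18.5, and its counts are given with this in mind. Promoters of the projection neuron genes Neurod6, Tbr1, and Bcl11b and of the radial glia genes Pax6 and Sox2 had peaks in all 6 lists. Among markers of Cajal-Retzius cells, Ebf2 had promoter peaks in 6 lists, Trp73 in 5, and Lhx5 in 2. Promoters of Cldn5, Pecam1, Alb, Ins2, and Myod1, which mark endothelium and tissues outside the brain, had a peak in no list. A promoter peak is not a measure of expression.

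All 6 Reelin genes had a promoter peak of all 3 TRs at both stages, which makes 36 of 36 pairs of gene and list. A promoter peak in all 6 lists was common, at 51.8% of 21951 protein-coding genes. By list it was found for 58.8% of genes with ARID1B, 61.8% with FOXP1, and 57.3% with TCF7L2 at E15.5, and for 57.3%, 55.0%, and 61.2% at E18.5. The presence of a peak thus did not separate the 6 genes from many others, and its height ranged widely among them. The ligand gene had the lowest promoter signal in all 6 lists. Cdk5 had the highest FOXP1 and TCF7L2 signal at both stages apart from TCF7L2 at E15.5, where Lrp8 was slightly higher. The summit of that Lrp8 peak lies near the far edge of an internal promoter.

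The Reln promoter, at the 5′ end of the gene, had ARID1B fold enrichments of 3.57 (2.57 to 4.84) at E15.5 and 4.21 (2.86 to 5.98) at E18.5. FOXP1 gave 8.23 (6.36 to 10.5) and 6.15 (4.47 to 8.28), and TCF7L2 gave 4.94 (3.65 to 6.54) and 4.93 (3.61 to 6.58). All 6 values were below the median of coding genes with a promoter peak in the same list, at percentiles of 10.6 to 32.4. The annotation gives Reln 8 separate promoter regions, 7 of them inside the gene and of noncoding transcripts. Of these 7, only the region at chr5:22134670-22136669 had a peak, of ARID1B at E15.5 with a fold enrichment of 2.68.

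The 2 receptor genes differed in promoter signal. Vldlr had fold enrichments of 4.64 and 5.19 for ARID1B, 8.61 and 6.74 for FOXP1, and 6.40 and 7.22 for TCF7L2 at E15.5 and E18.5, at percentiles of 25.5 to 59.3, so that it lay below the median with ARID1B and FOXP1, at the median with TCF7L2 at E15.5, and above it with TCF7L2 at E18.5. For Lrp8, the promoter at the 5′ end gave 5.88 and 4.35 for ARID1B, 10.9 and 7.47 for FOXP1, and 6.40 and 6.57 for TCF7L2. Lrp8 also has 4 internal promoters, and the highest ARID1B and TCF7L2 promoter peaks lay at 2 of them. ARID1B reached 8.10 (6.54 to 9.94) and 9.40 (7.30 to 11.9) in peaks over the promoter at chr4:107821161-107823160. TCF7L2 reached 9.63 (7.78 to 11.8) and 8.76 (6.96 to 10.9) at the promoter at chr4:107828965-107830984. These 2 promoters had peaks in 5 lists and none in the FOXP1 list at E18.5. The promoter at chr4:107844201-107846200 had peaks in 4 lists, with ARID1B at 3.13 and TCF7L2 at 3.89 and 3.61, below the 5′ end, and the promoter at chr4:107848128-107850127 had none. The promoter with the highest ARID1B signal shares its locus with the promoter of the antisense gene Lrp8os2, and the lists cannot tell the 2 genes apart. The same limit holds at the 5′ end of Lrp8, whose locus also covers the promoter of Lrp8os3.

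At Dab1, too, the highest promoter peaks were internal, and here for all 3 TRs. The promoter at the annotated 5′ end (chr4:103617359-103619664) had peaks in 3 lists, FOXP1 at E15.5 with 4.68 and TCF7L2 with 3.37 at E15.5 and 3.83 at E18.5. These belong to the locus chr4:103619394-103620436 just downstream of the first TSS, which had weak peaks in all 6 lists, with fold enrichments of 2.81 to 4.68. The higher signal was at an internal promoter, chr4:104365113-104367589, from which 2 coding transcripts start and whose locus lies 749 kb from the 5′ end. There ARID1B gave 7.04 (5.58 to 8.76) and 6.45 (4.74 to 8.59), FOXP1 11.4 (9.17 to 14.0) and 7.03 (5.22 to 9.29), and TCF7L2 8.49 (6.76 to 10.5) and 8.65 (6.86 to 10.8). The 3 other Dab1 promoter regions had a peak in no list.

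The kinase gene and its activator had the strongest FOXP1 promoter peaks of the set. At Cdk5 FOXP1 reached 23.7 (20.4 to 27.3) at E15.5 and 17.5 (14.5 to 20.9) at E18.5, higher than at 96.9% and 99.3% of coding genes with a promoter peak in those lists. ARID1B gave 8.73 and 6.45 and TCF7L2 gave 9.32 and 9.74 at the same promoter. At Cdk5r1 FOXP1 gave 17.6 (14.8 to 20.8) and 11.3 (8.94 to 14.1), ARID1B 8.10 and 7.29, and TCF7L2 8.28 and 8.76. The intervals of Cdk5 and Cdk5r1 for FOXP1 lay wholly above those of Reln and Vldlr at E15.5. At E18.5 this held for Cdk5, while the interval of Cdk5r1 touched that of Vldlr. The Cdk5 peaks also cover the promoter of Slc4a2, an anion exchanger gene transcribed away from Cdk5, so the signal cannot be assigned to 1 of the 2 genes.

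**Figure D1:**
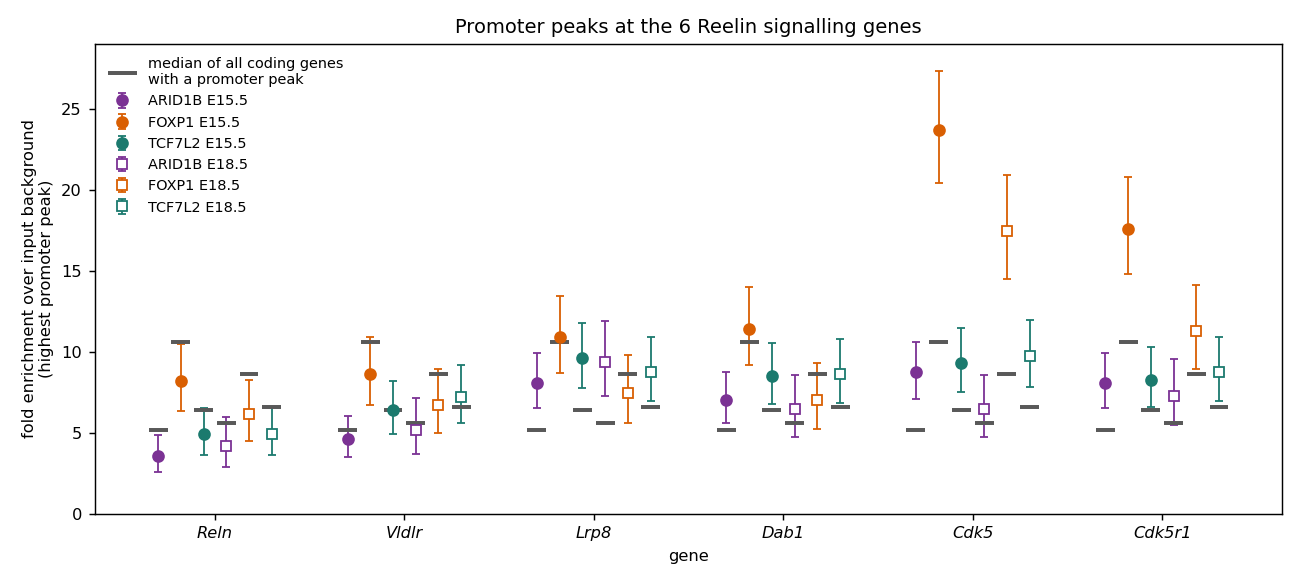
Fold enrichment (y axis) of the highest promoter peak of each gene (x axis) in the 6 lists, as circles for E15.5 and open squares for E18.5, with 95% exact Poisson intervals of the ChIP reads as error bars. Short bars give the median of all coding genes with a promoter peak in that list. Reln lies below all 6 medians, and the FOXP1 values of Cdk5 (23.7 and 17.5) and Cdk5r1 (17.6 and 11.3) lie above theirs.

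Outside promoters, ARID1B reached higher values than at the gene's own promoters at Reln, Dab1, and Lrp8, and only slightly higher ones at Cdk5r1. For each gene, the highest peak that overlapped no promoter was set against the highest peak in its own promoters. ARID1B was higher outside promoters in 4 of the 5 genes with such a peak at E15.5 and in 4 of 5 at E18.5, where this holds for 41.8% and 42.0% of all genes with both. Among genes with windows of similar length it holds more often the longer the gene, for 79.6% and 77.8% at the length of Reln and 97.0% and 95.2% at that of Dab1, against 40.9% and 41.1% at that of Lrp8. At the length of Cdk5r1 the shares were 31.3% and 32.1%. The Cdk5r1 ratios were only 1.09 and 1.04. Its E15.5 intervals overlapped, 7.18 to 10.7 outside promoters against 6.54 to 9.94 at the promoter. For FOXP1 it was so in 2 of 5 genes at E15.5 and in 1 of 4 at E18.5 (17.3% and 17.9% of all genes), and for TCF7L2 in 2 of 4 at each stage (20.2% and 18% of all genes). Cdk5 had no peak outside promoters in any list, and the ARID1B exception was Vldlr.

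At Reln the difference was large. The intronic locus chr5:21947176-21949773, about 396 kb from the 5′ end and towards its 3′ end, had ARID1B fold enrichments of 12.6 (10.7 to 14.9) at E15.5 and 14.7 (12.1 to 17.8) at E18.5. These were 3.54 and 3.50 times the values at the Reln promoter. Among the 732 and 724 coding genes with windows of similar length, within a factor of 2, the ratios were at percentiles of 97.0 and 96.1, and the median ratios were 1.56 and 1.52. The E18.5 peak ranked 464 in its list. FOXP1 gave 9.75 and 4.38 at this locus at E15.5 and E18.5 and TCF7L2 gave 4.94 and 5.80, so all 3 TRs were found there at both stages.

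At Dab1 the locus chr4:103881425-103882667, 263 kb into the gene, had ARID1B fold enrichments of 12.7 (10.7 to 14.98) at E15.5 and 15.1 (12.4 to 18.3) at E18.5, which ranked 403 in its list. FOXP1 gave 11.6 and 6.30 there, and TCF7L2 gave 5.77 and 5.69. The ARID1B ratios to the internal promoter, 1.81 and 2.35, were near those of other very long genes, whose medians were 2.08 and 2.00 among 168 and 167 genes. Dab1 had 5 further loci outside promoters with peaks in all 6 lists. These were at chr4:104113001-104114571, chr4:104269337-104270759, chr4:104439522-104440139, chr4:104642729-104645126, and chr4:104705842-104707084. They lay 494, 651, 820, 1025, and 1087 kb from the 5′ end, and their ARID1B fold enrichments at E18.5 were 8.84, 11.5, 8.70, 7.99, and 9.68.

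At Lrp8 the highest locus outside promoters lies in an intron 15.2 kb from the 5′ end, and here TCF7L2 was high as well. ARID1B gave 11.9 (10.0 to 14.1) and 13.9 (11.3 to 16.9), and TCF7L2 gave 10.5 (8.53 to 12.7) and 11.7 (9.61 to 14.1). The TCF7L2 peaks ranked 523 and 363 in their lists, against ranks of 13868 and 9508 for the TCF7L2 peaks over the ARID1B summit of the Reln locus. FOXP1 gave 9.75 and 6.44. The locus downstream of Cdk5r1, chr11:80488744-80490299, was the highest outside promoters for that gene with ARID1B and TCF7L2. It had peaks in 5 lists, with fold enrichments of 8.81 and 7.57 for ARID1B, 5.19 for FOXP1 at E15.5, and 5.46 and 5.69 for TCF7L2. Around Vldlr the values outside promoters reached no more than 3.94.

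**Figure D2:**
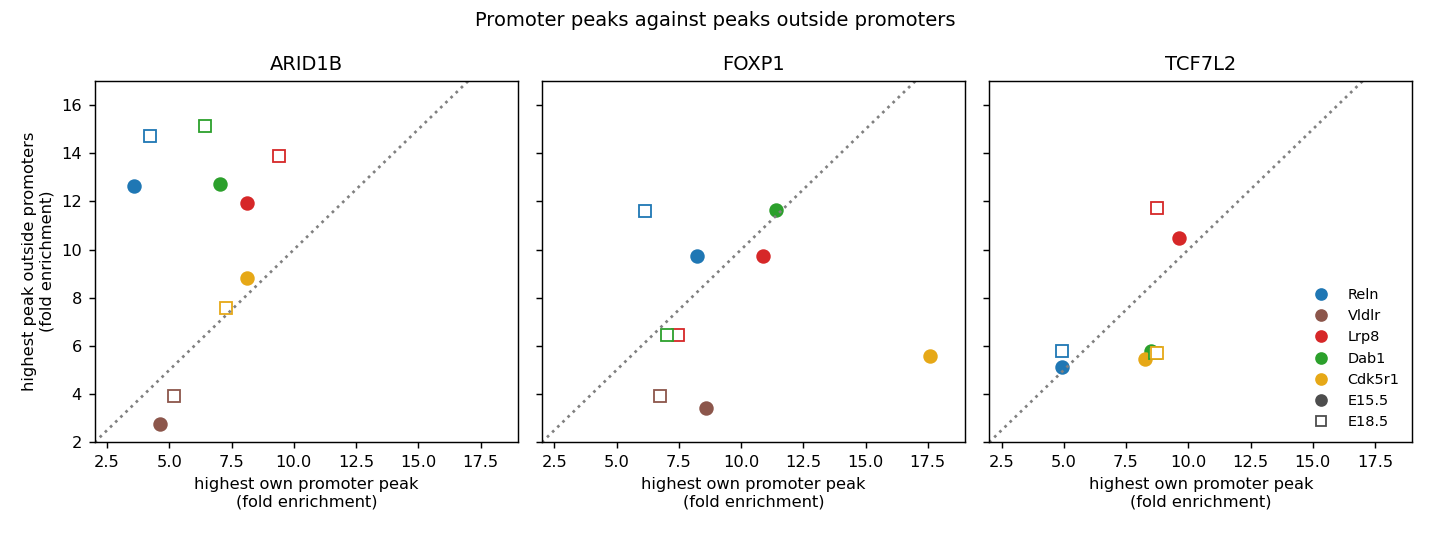
Highest peak outside all promoters (y axis) against the highest peak in the gene's own promoters (x axis), both as fold enrichment, for each gene with both and for ARID1B, FOXP1, and TCF7L2. Circles are E15.5, open squares E18.5, and the dotted line marks equal values. Reln, Dab1, and Lrp8 lie above the line for ARID1B, with 12.6 and 14.7 against 3.57 and 4.21 at Reln.

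**Figure D3:**
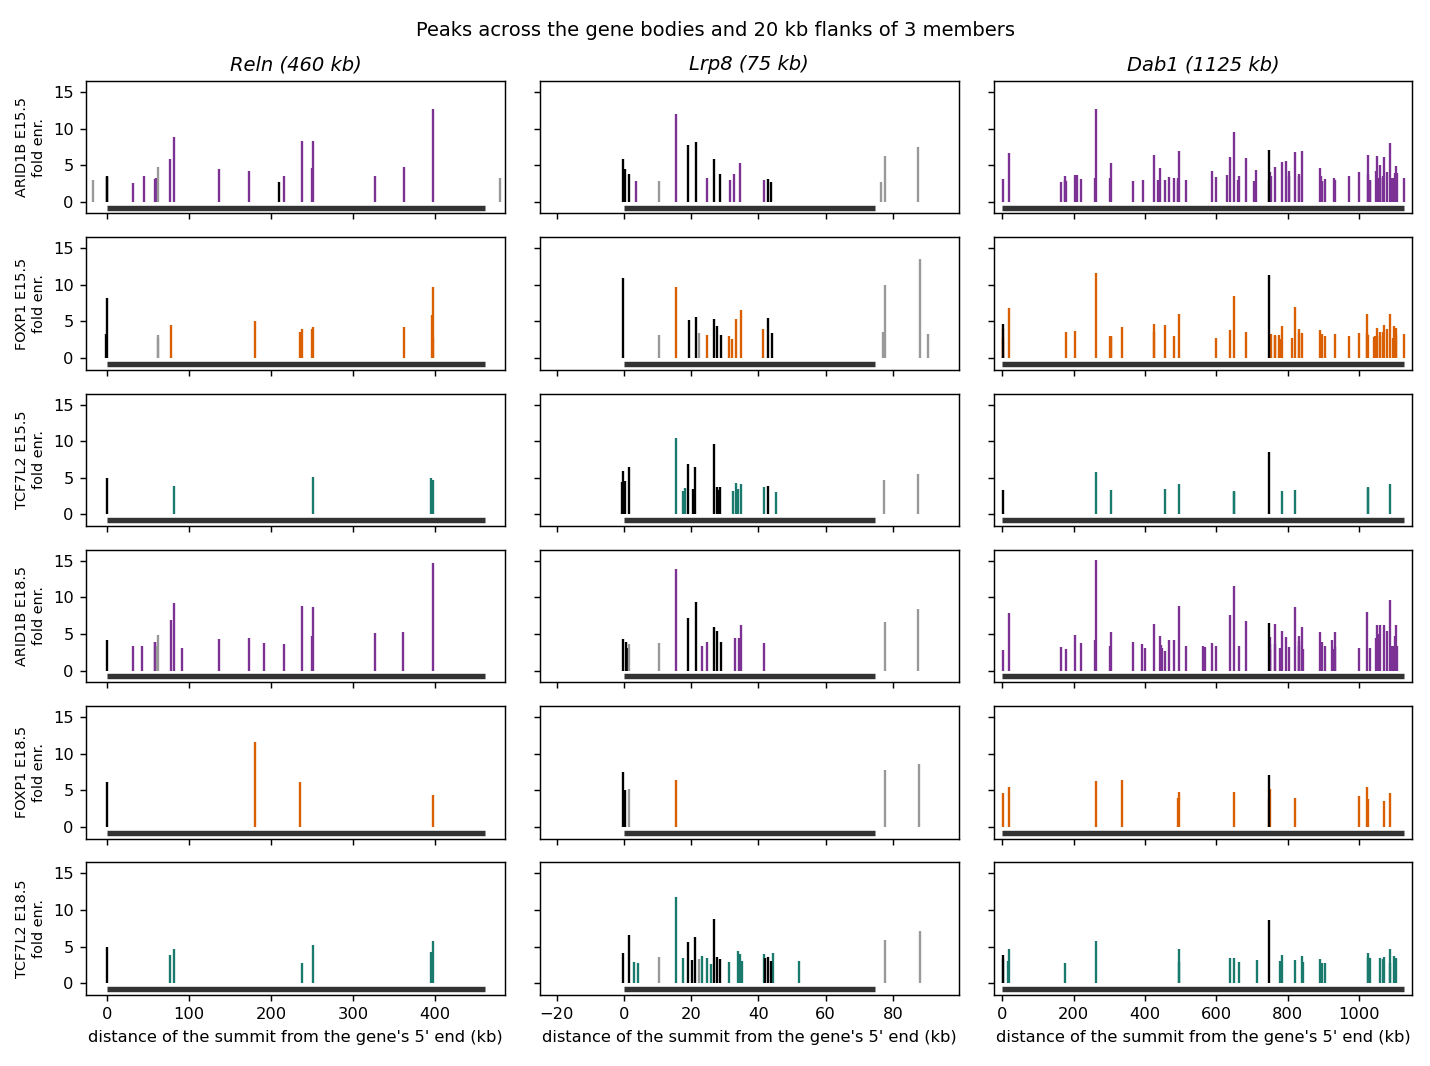
Peaks of each list (rows) along Reln, Lrp8, and Dab1 (columns) by the distance of the summit from the 5′ end of the gene in kb (x axis) and fold enrichment (y axis). Black lines are peaks in the gene's own promoters, grey lines are in promoters of neighbouring genes, coloured lines are all others, and the thick bar is the gene. The ARID1B peaks of Reln and Dab1 are tallest at the loci 396 and 263 kb from the 5′ end, and those of Lrp8 at the locus 15.2 kb from it.

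Lrp8 and Cdk5r1 had the highest peak densities of the 6 genes in all lists but FOXP1 at E18.5, where Cdk5 was highest with 6.62 peaks per 100 kb. Per 100 kb, the Lrp8 window held 17.5 and 16.6 ARID1B peaks at the earlier and the later stage, 18.3 and 5.24 FOXP1 peaks, and 20.1 and 25.3 TCF7L2 peaks. Against all coding genes the ARID1B densities were at percentiles of 97.7 and 97.6, those of FOXP1 at 97.4 and 84.0, and those of TCF7L2 at 98.8 and 98.3. For TCF7L2 at E15.5 Lrp8 ranked 22 among 9940 genes with windows of similar length. In the same order of stages, Cdk5r1 had 20.4 and 20.4 ARID1B, 22.6 and 2.26 FOXP1, and 13.6 and 18.1 TCF7L2 peaks per 100 kb, and was above the 95th percentile in all but the FOXP1 list at E18.5. Its window is 44.2 kb long, so 1 peak counts for 2.26 per 100 kb. Cdk5 was at percentiles of 73.6 to 89.4 of all coding genes, Reln at 34.6 to 60.8, Vldlr at 32.0 to 63.9, and Dab1 at 36.0 to 76.4. Long windows had lower median densities, and among windows of similar length Dab1 was at percentiles of 74.0 to 94.4 and Reln at 54.5 to 69.8.

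**Figure D4:**
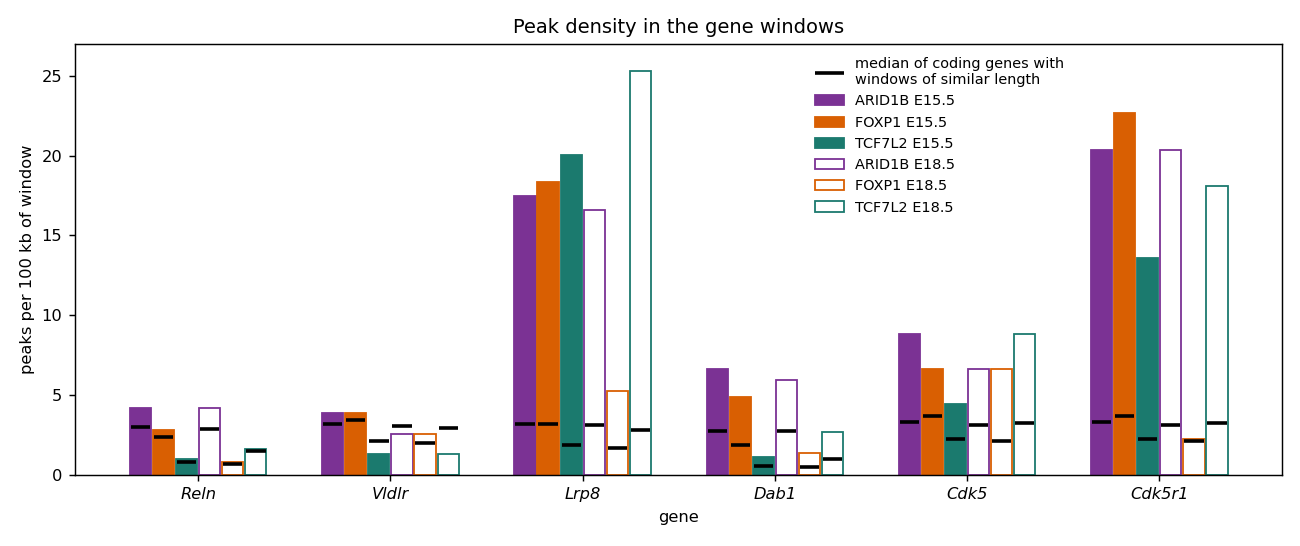
Peaks per 100 kb of window (gene body with 20 kb on either side, y axis) for each gene (x axis) and list, as filled bars for E15.5 and open bars for E18.5. Black lines are the medians of coding genes with windows of similar length. Lrp8 (5.24 to 25.3) lies well above them in all 6 lists, and Cdk5r1 (13.6 to 22.6) in all but the FOXP1 list at E18.5 (2.26).

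Overlap of the TRs was then counted in loci, which are unions of overlapping peaks. At E15.5 the windows held 150 loci, and 32 had peaks of all 3 TRs. They were 15 of 26 loci at promoters, against 65.7% of promoter loci over the genome, and 17 of 124 other loci (13.7%), against 18.1%. At E18.5 there were 21 among 141 loci, 11 of 26 at promoters against 57.0% and 10 of 115 elsewhere (8.70%) against 10.4%. All 4 shares were below those of the genome, and the Wilson 95% intervals at promoters and elsewhere, 38.9 to 74.5% and 8.74 to 20.9% at E15.5 and 25.5 to 61.1% and 4.79 to 15.3% at E18.5, held the genome values. Without the division by class, the shares were 21.3% (15.54 to 28.6%) against 30.1% at E15.5 and 14.9% (9.95 to 21.7%) against 22.9% at E18.5, intervals that lay below the genome values. Promoter loci were 17.3% and 18.4% of the loci in the windows and 25.1% and 26.9% over the genome. With the genome weighted to the classes of the windows its shares were 26.3% and 19%, inside the intervals. Of the loci with all 3 TRs at E15.5, the Lrp8 window held 8 at promoters and 4 elsewhere, and the Dab1 window 2 and 9. The counts depend on the weaker peaks, since 14 and 6 loci remained at the stages with −log10 p of at least 15.

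The TR that was found alone varied from gene to gene, a difference for which there was no test. Outside promoters, loci with a single TR made up 55.6% in the windows at E15.5, against 51.3% over the genome, and 69.6% against 65.1% at E18.5. Over the genome, ARID1B was alone at 31.6% of loci outside promoters at E15.5 and 44.6% at E18.5, FOXP1 at 18.3% and 2.84%, and TCF7L2 at 1.44% and 17.6%. In the Dab1 window ARID1B was alone at 35 of 86 and 45 of 73 loci outside promoters, FOXP1 at 13 and 1, and TCF7L2 at 0 and 6. For Reln the ARID1B counts were 8 of 17 and 13 of 20, those of FOXP1 were 2 and 2, and TCF7L2 was alone at none. In the Lrp8 window at E18.5 no locus had ARID1B or FOXP1 alone, and TCF7L2 was alone at 5 of 15 promoter loci, against 18.4% over the genome, and at 7 of 13 others. At E15.5 the Lrp8 window had 2 such loci, both among its 10 outside promoters. At E18.5 TCF7L2 was also alone at 2 of 4 promoter loci of the Cdk5 window and at 3 of 8 loci outside promoters in the Cdk5r1 window. The TCF7L2 list at E18.5 held more peaks in all than the one at E15.5, and the part of this in these counts was not tested.

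Over both stages the windows held 168 loci, of which 17 had a peak in all 6 lists. They were 9 of 28 promoter loci (32.1%), against 53.1% over the genome, and 8 of 140 other loci (5.71%), against 6.51%. Apart from the loci already given, they include the promoters of Magoh and 0610037L13Rik, neighbours downstream of Lrp8, with FOXP1 fold enrichments of 10.00 and 13.5 at E15.5. The promoter of Asic3, an ion channel gene next to Cdk5, had peaks in 5 lists at 3.29 to 4.38. Without the FOXP1 list at E18.5, 26 loci had a peak in each of the 5 remaining lists, an alternative added after the data were seen. Leaving out a list can only keep or raise the count, and no other list was left out for comparison. They were 14 of 28 promoter loci (50%), against 58.8% over the genome, and 12 of 140 others (8.57%), against 14.0%. In the Lrp8 window the number went from 4 to 10.

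Between E15.5 and E18.5, most ARID1B peaks at the Reelin genes were found at both stages. Of 107 peaks outside promoters at E15.5, 82 overlapped an ARID1B peak at E18.5 (76.6%), against 75.0% over the genome, and 20 of 27 did so at promoters, against 86.9%. In the other direction it was 86 of 102 outside promoters (83.0% over the genome) and 20 of 21 at promoters (92.0%). For TCF7L2, 25 of 28 peaks outside promoters at E15.5 (92.1% over the genome) and 22 of 22 at promoters (97.9%) were found again at E18.5. Looking back from E18.5, 21 of 56 TCF7L2 peaks outside promoters (43.9%) and 19 of 25 at promoters (76.6%) had an E15.5 peak. With both classes together, 40 of 81 TCF7L2 peaks had one, against 56.5% over the genome. The E18.5 list is the longer one, with 53219 against 33042 peaks, and with lists of equal length the shares were 74.3% of 35 peaks and 83.4%. In the full lists, the TCF7L2 peaks at E18.5 with an E15.5 peak were 11 of 31 at Dab1, 17 of 29 at Lrp8, and 6 of 8 at Reln. They were 4 of 8 at Cdk5r1, 1 of 4 at Cdk5, and 1 of 1 at Vldlr.

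FOXP1 peaks were fewer at E18.5, the list with the lowest background. Of 83 FOXP1 peaks outside promoters at E15.5, 14 had an E18.5 peak (19.9% over the genome), and of 25 at promoters 11 did (66.5%). With both classes together, 25 of 108 did (23.1%, Wilson 95% interval 16.2 to 31.9%), against 34.2% over the genome. Weighted to the share of promoter peaks in the windows, the genome value was 30.7%, inside the interval. At promoters alone the share was 44% (26.7 to 62.9%), an interval below the genome's 66.5%. Outside promoters the interval was 10.3 to 26.3%, which held the genome's 19.9%. By gene, the FOXP1 peaks at E15.5 with an E18.5 peak were 12 of 57 at Dab1, 4 of 21 at Lrp8, and 4 of 14 at Reln. They were 1 of 10 at Cdk5r1, 3 of 3 at Cdk5, and 1 of 3 at Vldlr. All 20 FOXP1 peaks outside promoters and all 12 at promoters at E18.5 had an E15.5 peak, against 92.3% and 99.5%. With every list reduced to its 24872 strongest peaks, 65.5% of 29 FOXP1 peaks at E15.5 had an E18.5 peak, and over the genome the share was 74.96%.

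Where a TR had a peak at both stages, the heights were compared on the log2 scale as E18.5 over E15.5. The median over the genome was 0.11 for ARID1B, −0.30 for FOXP1, and 0.06 for TCF7L2, and over the Reelin loci it was 0.10 (98 loci), −0.38 (25 loci), and 0.03 (36 loci). None of the ARID1B or TCF7L2 loci at the Reelin genes was 2-fold higher or lower than the median ratio. Over the genome this was rare as well, with 0.00% higher and 0.00371% lower at E18.5 for ARID1B and 0.00% and 0.00350% for TCF7L2. For FOXP1, 2 of the 25 loci were at least 2-fold higher at E18.5 relative to the median ratio, against 1.29% over the genome, and none was 2-fold lower, against 1.44%.

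Both FOXP1 loci are in Reln introns, and neither had a peak of ARID1B or TCF7L2 at either stage. The first, 181 kb from the 5′ end, had FOXP1 fold enrichments of 5.06 (3.64 to 6.87) at E15.5 and 11.6 (9.21 to 14.4) at E18.5, intervals that do not overlap. The other locus, chr5:22108640-22109019, 236 kb from the 5′ end, had 3.54 (2.38 to 5.10) and 6.15 (4.47 to 8.28), whose intervals overlap. Relative to the median ratio these are log2 differences of 1.49 and 1.09. Repeats that RefSeq masks in lower case cover 63.5% and 70.0% of the 200 bp at the E18.5 summits. Windows that are repeats by more than 50% make up 1.77% of the peaks outside promoters at the Reelin genes and 2.27% over the genome. The part of the repeats in the FOXP1 values was not tested. FOXP1 at the Reln locus with the highest ARID1B signal was 9.75 (7.70 to 12.2) at E15.5 and 4.38 at E18.5, with an upper bound of 6.22. Relative to the median ratio this is a log2 difference of −0.86, at the percentile 1.80 of all FOXP1 loci with a peak at both stages.

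**Figure D5:**
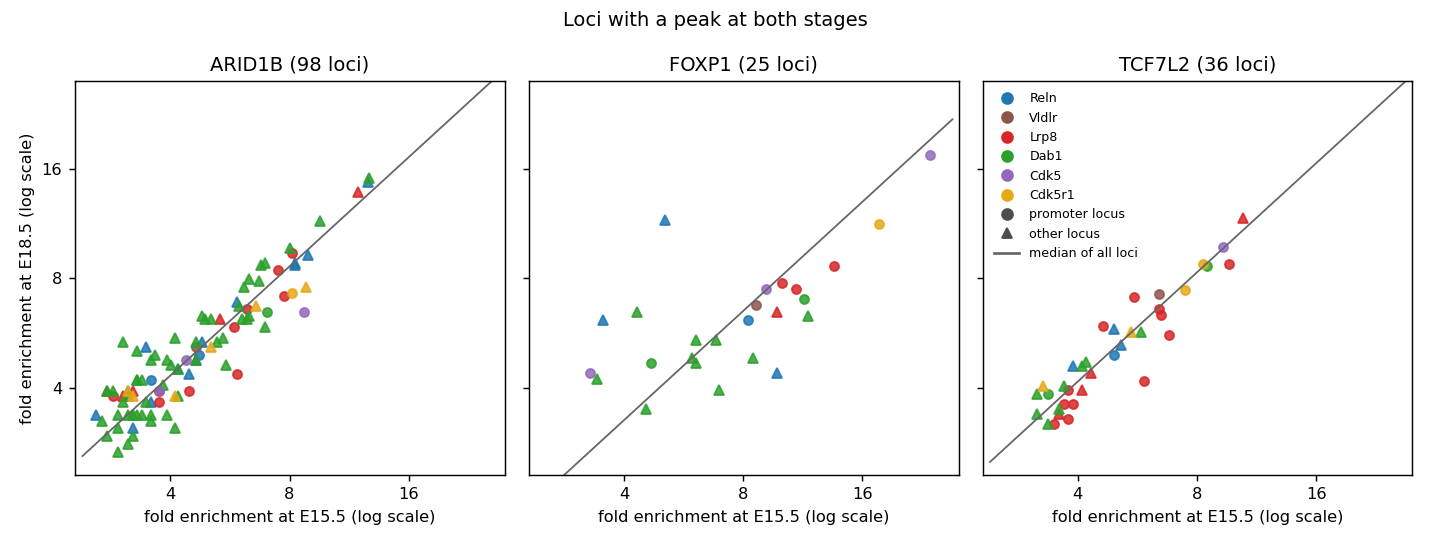
Fold enrichment at E18.5 (y axis) against E15.5 (x axis), both on log scales, for loci of the 6 genes with a peak at both stages, by TR. Circles are loci at promoters, triangles all others, colours mark the genes, and the line is the median ratio over the genome. The Reln triangle far above the FOXP1 line is the intronic locus with 5.06 and 11.6.

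The sequences under the summits were searched on both strands for the forkhead core TGTTTAC, the TCF/LEF core TCAAAG, the E-boxes CATCTG and CAGCTG, and the T-box core AGGTGTGA. No motif contains another. In 200 bp windows of the 396 peaks outside promoters, CATCTG was present in 153 (38.6%), against 29.9% of all 206678 such peaks. TCAAAG was in 13.6% against 12.7%, CAGCTG in 19.2% against 19.3%, and TGTTTAC in 2.02% against 3.57%. Windows of different lists overlap, so the locus is the better unit. Of 140 loci outside promoters, counted by their highest peak, 53 held CATCTG (37.9%, Wilson 95% interval 30.2 to 46.1%), against 30.5% of 71409 loci. By locus TGTTTAC was in 5 (3.57%) against 3.74%, TCAAAG in 19 (13.6%) against 12.98%, and CAGCTG in 21 (15%) against 18.9%. By gene CATCTG was in 11 of 21 Reln loci, 34 of 99 Dab1 loci, 4 of 11 Lrp8 loci, and 3 of 8 Cdk5r1 loci. In the printed Reln intron CATCTG starts at base 99 and TCAAAG at base 127.

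The T-box core was in 8 of the 396 windows (2.02%), against 0.885% over the genome. Of these 8 windows, 4 are ARID1B and TCF7L2 summits of a single Reln intron locus, chr5:22262320-22263020, 82.0 kb from the 5′ end. ARID1B gave 8.90 (7.26 to 10.8) and 9.26 (7.18 to 11.8) there and TCF7L2 gave 3.89 and 4.60, and FOXP1 had no peak. The 3 copies in the printed window start 34 bp apart, so they belong to a tandem repeat. Counted by locus, the core was in 3 of 140 (2.14%) against 0.934%. The 132 windows at promoters of the Reelin genes held neither TGTTTAC nor AGGTGTGA, which are also rare over all promoter peaks, at 1.56% and 0.493%. If the windows were separate, 0 of 132 would allow a share of up to 2.83% (Wilson 95% interval). They come from 28 promoter loci and overlap between lists, so this bound is too low.

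Promoter windows at the Reelin genes had a median GC content of 60%, against 63.5% for all promoter peaks, and an observed-to-expected CpG ratio of 0.61 against 0.75. Outside promoters the GC content was 48.0% against 49.0%.

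Further genes of the pathway were counted from a list of 30 kinases, adaptors, adhesion receptors, ubiquitin ligase parts, and cytoskeletal regulators such as Fyn, Crk, Pafah1b1, and Cul5. All 30 were matched in the annotation, and 29 had a promoter peak in all 6 lists, against 51.8% of coding genes. The listed genes were not matched to the coding genes for expression in cortex, which the peak lists do not measure. The exception was Dcx, which encodes a microtubule protein of migrating neurons. It had no promoter peak in the FOXP1 list at E18.5 and fold enrichments of 3.07 to 5.44 in the others. For the listed genes the median promoter fold enrichment was 5.75 and 6.73 with ARID1B at the earlier and the later stage, 13.0 and 10.1 with FOXP1, and 7.81 and 8.48 with TCF7L2. Over all coding genes with a promoter peak the medians were 5.17 and 5.61, 10.6 and 8.65, and 6.40 and 6.57.

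Genes whose promoter values were most like those of each Reelin gene were sought among 11375 other genes with promoter peaks in all 6 lists, by Euclidean distance over the 6 log2 fold enrichments. Reln was nearest to 2210016F16Rik (distance 0.11) and Map3k1 (0.13), Vldlr to Gemin5 (0.14) and Eef2k (0.14), and Lrp8 to Gse1 (0.23) and Ctdsp1 (0.26). Dab1 was nearest to Casz1 (0.16) and Pip4p2 (0.19). Cdk5 had Slc4a2 at a distance of 0, since both share the same peaks, and then Rab5b at 0.41. Cdk5r1 was nearest to Raver1 and Gm38431, which share the same values, at 0.12.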

How the data were processed

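Single-end reads of ChIP and input libraries were aligned by the authors with bwa mem (0.7.15) to mm10, filtered by mapping quality, and, per the methods, merged over replicates. The authors called narrow peaks with MACS2 (2.2.7) against input, with reads extended to 200 bp and a constant background. The sources used here do not state the handling of duplicates. The deposited lists hold the fold enrichment as a ratio, −log10 of the p-value and of the q-value, and a score that was not used. Since the p-value follows from the summit and background reads by a Poisson model, both were recovered from the 2 columns. The recovered values gave 100% of the pairs in each list, and the search was tested on simulated data. The background was taken as fixed in the intervals. Peaks were assigned with GENCODE vM21, by an overlap of at least 1 base, with pandas 2.3.3, SciPy 1.17.1, and pysam 0.24.0. Peaks were classed in the order own promoter, promoter of another gene, gene body, and flank. Sequences came from the RefSeq GRCm38 assembly. Genes named were the 6 members, neighbours with promoter peaks in their windows, the pathway list, and for each member the 2 genes nearest in promoter values. Peaks named were the highest of each gene and class and those in loci with peaks in all 6 lists. The window with repeated sequence was added after its values were seen. Some items are not reported here. The members and lists were chosen with earlier results of these data known. The alternatives were a stricter p-value, other promoter and flank lengths, coding transcripts only, summits in place of peaks, lists of equal length, and smaller motif windows.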

Additional observations from a re-analysis of the deposited data

How the results depend on the processing

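Of 37 values under alternatives, 20 stayed within 1.5 times a count or within the Wilson 95% interval of a share. The 36 pairs of gene and list with a promoter peak became 33 with −log10 p of at least 15 and 34 with lists of equal length, and Reln accounted for all pairs lost in both, while 31 remained with the summit inside the promoter. Peaks with −log10 p of at least 15 left 101 gene-body and flanking peaks, 14 loci with all 3 TRs at E15.5, 6 at E18.5, and 5 loci with a peak in all 6 lists. Lists of equal length left 141 such peaks and 18 and 13 loci with all 3 TRs. With summits of all 3 TRs within 200 bp there were also 18 and 13. With lists of equal length, the share of peaks found at the other stage was 90.9% for ARID1B at E15.5 (83.9% over the genome), 65.5% for FOXP1 at E15.5 (74.96%), 81.2% for FOXP1 at E18.5 (83.6%), and 74.3% for TCF7L2 at E18.5 (83.4%), and it was 89.1% for ARID1B at E18.5 (84.8%) and 85.7% for TCF7L2 at E15.5 (87.5%). Without the FOXP1 list at E18.5, 26 loci had a peak in every list, a count that leaving out a list can only keep or raise. In 100 bp windows TCAAAG was in 9.09%, CATCTG in 22.7%, and CAGCTG in 10.4% of peaks outside promoters, against 6.29%, 18.3%, and 11.2% over the genome. The stricter p-value and the lists of equal length hold fewer peaks, and the 100 bp windows are shorter, by construction. For the other settings the cause was not tested. No paired analysis was possible because each TR and stage has a single list, taken as merged over replicates, and for the same reason no replicate could be left out. Depth limits what can be said of loci missing from the FOXP1 list at E18.5, which would not list a fold enrichment below 3.21.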
